A study of Mus musculus with 33 samples.

Results

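Fas, Tnfrsf10b and Perp are apoptosis genes whose products sit at the cell surface, and p53 peaks around them were sought in mouse B cell lymphomas. The peaks counted were all those that overlap fixed mm9 windows: chr19:34345000-34420000 for Fas (75 kb), chr14:70150000-70200000 for Tnfrsf10b (50 kb) and chr10:18545000-18600000 for Perp (55 kb). Of 102916 peaks in 26 lists, 6 met this rule. All 6 lay in the Fas window, where they formed 3 sites, and the Tnfrsf10b and Perp windows held 0 peaks in every list.

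The lymphomas arose in C57/Bl6 mice that carry the Eµ-myc transgene, which drives Myc in B cells, and lymph node cells were used without further purification. In tumours 1 to 4 one Trp53 allele was deleted and the other was a knock-in (KI), whose product depends on OHT (4-hydroxytamoxifen) for its function. Cells of each were given ethanol (EtOH, 1 volume per 1000) or 100 nM OHT for 2 h. Tumours 5 to 7 were Arf-/- Trp53+/+, so that p53 is wild type and its upstream activator Arf is missing in all their groups. They were sampled untreated and after 3 h with water (1 volume per 1000), DMSO (0.5 volumes per 1000), 5 µM (+)-Nutlin, 5 µM (-)-Nutlin or 1 µM doxorubicin. The Nutlins are mirror images of one molecule, and the (-) form is the one that blocks binding of p53 by Mdm2. Each treatment and tumour gave 1 list. The OHT, doxorubicin and (-)-Nutlin lists are called activated here.

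Fas encodes a death receptor of the TNF receptor family. When Fas ligand binds it, the receptor recruits the adaptor Fadd and caspase-8 and starts apoptosis from the membrane. Tnfrsf10b encodes the mouse receptor for TRAIL, another death ligand, and signals through the same adaptor and caspase. Perp encodes a membrane protein with several membrane-spanning segments that takes part in cell adhesion and in p53-dependent apoptosis. All 3 are known as genes that p53 can induce, and lymphoid cells are a classical setting of Fas-dependent death.

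The genome sequence of the peaks is not shown, since no mm9 sequence was used here. Of the 3 genes, 1, Fas, has an entry in the RefSeq promoter table of GRCm38.p6, which gives 300 bases around the start of the gene. It is shown because Fas is the member with peaks. It lies at chr19:34290409-34290708 of GRCm38.p6 on the plus strand, and capitals would mark the p53 decamer consensus or its core CATG:
Fas promoter: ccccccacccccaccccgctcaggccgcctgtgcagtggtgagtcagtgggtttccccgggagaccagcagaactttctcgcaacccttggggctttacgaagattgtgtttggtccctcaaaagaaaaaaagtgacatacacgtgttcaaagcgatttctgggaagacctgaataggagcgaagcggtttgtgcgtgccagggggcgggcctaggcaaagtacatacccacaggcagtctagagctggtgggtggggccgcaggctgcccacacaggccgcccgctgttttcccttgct

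The run has no capitals, because it held 0 exact matches to the decamer and 0 to CATG on either strand. The decamer contains C, 2 bases that are each A or T, and G at its centre, so that some of its matches also contain CATG. Among 32851 promoter entries of 300 bases in that table, 8.36% held the decamer and 61.1% held CATG. These letters bear on this window alone. Its position relative to the mm9 peaks was not analysed here, because the builds differ. For the same reason the windows were not checked against a gene annotation, and whether a peak lies in a promoter, exon or intron was not analysed here. In the gene order of GRCm38, the coding genes next to Fas are Acta2 and Ch25h, those next to Tnfrsf10b are Chmp7 and Rhobtb2, and those next to Perp are Gm4922 and Tnfaip3.

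A peak in the Fas window was called in 4 of the 26 lists, 15.4% of them, with an exact Clopper-Pearson 95% interval from 4.36% to 34.9%. The 4 lists were OHT tumour 1, OHT tumour 2, doxorubicin tumour 6 and doxorubicin tumour 7. They made up 4 of the 10 activated lists, while 0 of the 16 unactivated lists had a peak there. Over 75 kb segments of the whole genome, activated lists had a peak in 8.31% to 21.6% of segments. For unactivated lists the share was 0.213% to 6.94%, so the split between activated and unactivated lists goes along with the number of peaks per list. Within the activated lists it did not. Those with a Fas peak held 3597 to 9523 peaks, and those without held 5617 to 11346. None of the 3 (-)-Nutlin lists had a Fas peak, nor had the OHT lists of tumours 3 and 4 or the doxorubicin list of tumour 5. The interval treats lists as independent, although several come from each tumour.

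The sites of the Fas window were numbered by position. Site 1, chr19:34366325-34367325, began 21.3 kb into the window and was called in 2 doxorubicin lists. Its peak in tumour 6 was 1001 bp wide, wider than 85.8% of the peaks of that list. In tumour 7 its peak was 702 bp wide, wider than 73.1% of the peaks of that list. The tumour 7 peak lay wholly within the tumour 6 peak, and the midpoints of the peaks were 20.5 bp apart. Site 1 was thus a site of above-median width in both tumours that had it, and no list of any other treatment had a peak there.

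Site 2, chr19:34367468-34367783, lay 142 bp beyond site 1 and was called in 1 list, doxorubicin tumour 6. Its peak of 316 bp was near the lower limit of that list, wider than 3.87% of the peaks and 0.611 of the list's median width. When peaks within 500 bp were merged, sites 1 and 2 became a single site. Site 2 was the narrowest of the 6 peaks and site 1 in the same list was the widest.

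Site 3, chr19:34395167-34395698, lay 27.4 kb beyond site 2 and was the one called in the most lists. It had a peak of 377 bp in OHT tumour 1, of 532 bp in OHT tumour 2 and of 361 bp in doxorubicin tumour 6. These peaks shared 356 bp, and their midpoints fell within 69.5 bp of each other. They ranked at percentiles 28.9, 69.4 and 18.9 of width within their lists. Site 3 was therefore called at the same place in KI and in wild-type p53 tumours, with a width above the median of the list in 1 of its 3 lists. Doxorubicin tumour 6 was the only list with peaks at all 3 sites.

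**Figure D1:**
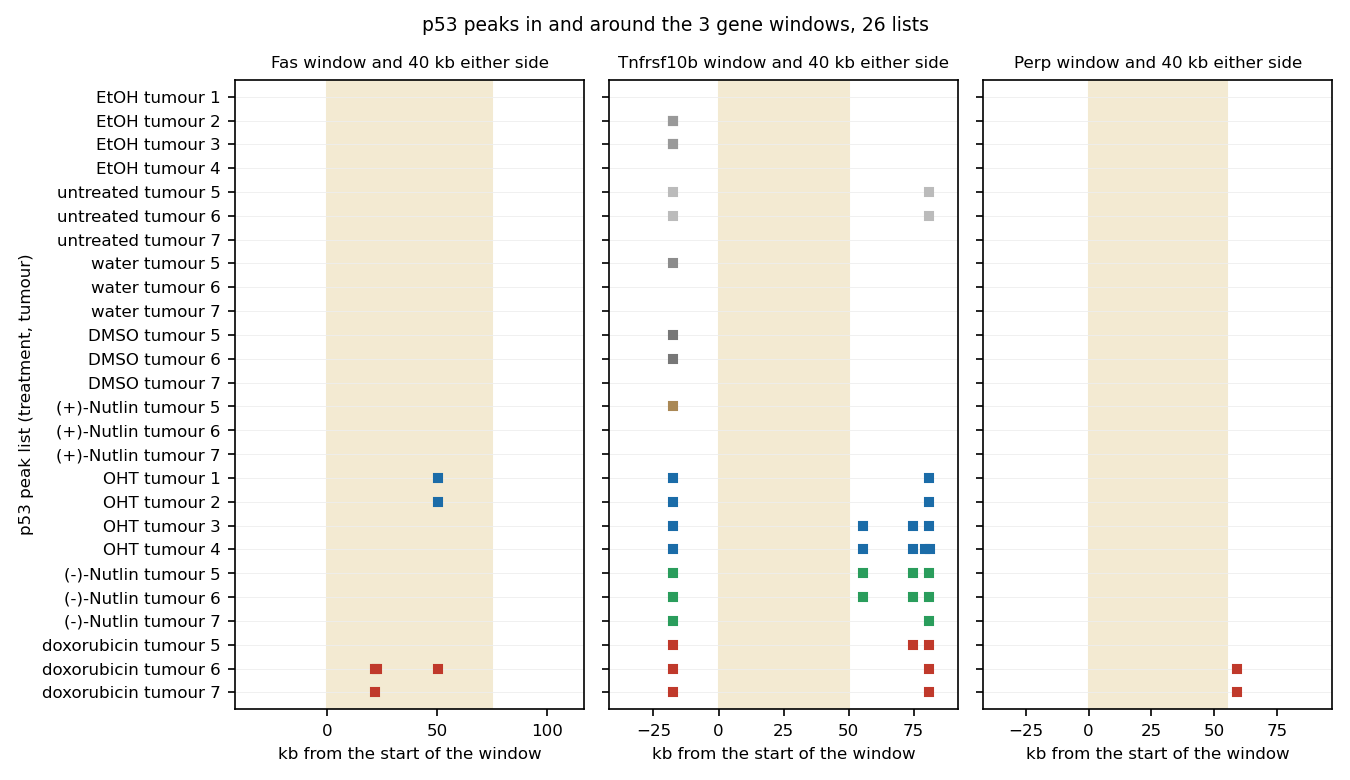
Midpoints of p53 peaks (squares, not drawn to peak width) in kilobases from the start of each window, for the 26 lists and up to 40 kb outside the windows, which are shaded. The 6 peaks inside a window all lie in the Fas panel, in 4 activated lists, and peaks flank the Tnfrsf10b window in 18 lists on one side.

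**Figure D2:**
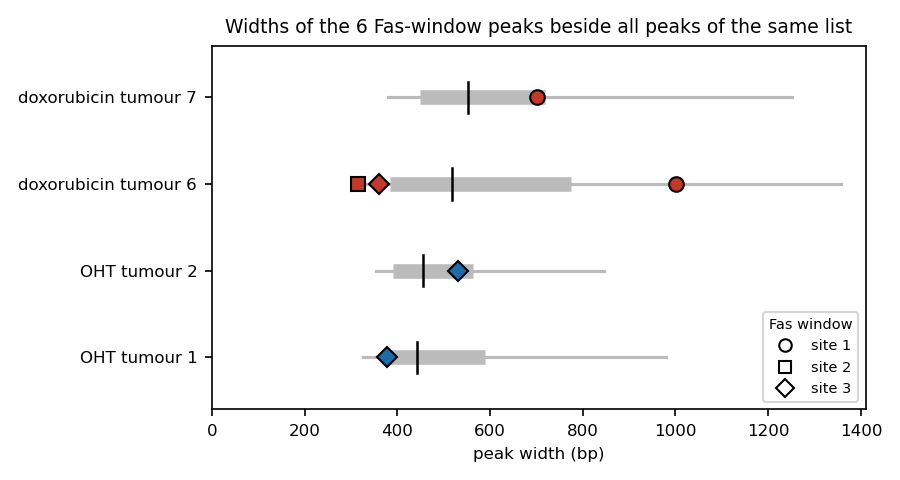
Widths in bp of the 6 Fas-window peaks (symbols, by site) beside all peaks of the same list, given as the 5th to 95th percentile (thin line), the quartiles (bar) and the median (tick). Site 1 lies above the median of both doxorubicin lists, and site 2 lies below the 5th percentile of its list.

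Restoring p53 in KI tumours was asked first. OHT lists had 1, 1, 0 and 0 Fas sites in tumours 1 to 4, and EtOH lists had 0 in each. The means were 0.5 ± 0.577 (SD, n = 4) and 0 ± 0 (SD, n = 4), so the groups overlap. The difference of 0.5 sites had p = 0.429 by two-sided exact permutation of the lists. The smallest possible p is 0.0286 for lists without ties. With peaks in only 2 lists, both of OHT, 0.429 was the lowest p these counts allow, so the test could not decide. Site 3 was the 1 member region in this comparison. Fisher's exact test gave it p = 0.429, and 0.642 after Benjamini-Hochberg adjustment over all 12799 regions. Even a region called in 4 of 4 OHT and 0 of 4 EtOH lists had an adjusted p of 0.307 by this test. Fisher's test could therefore call no region in this comparison, and it decides nothing about site 3. No member was gained, that is, called in every OHT and no EtOH list, while 9.31% of all regions were.

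The KI tumours with a Fas peak were those with the shorter OHT lists. OHT tumours 1 and 2 held 4102 and 3597 peaks, and OHT tumours 3 and 4 held 10084 and 9738. Among the 12677 regions called in any OHT list, 169 (1.33%) had a peak in tumours 1 and 2 and in neither of the other two, as site 3 did. The opposite arrangement, tumours 3 and 4 without 1 and 2, held 4268 regions (33.7%). OHT peaks of tumours 3 and 4 nearest to the Fas window ended 53.1 kb and 75.6 kb before it. Site 3 thus belongs to a small class of OHT regions that the longer lists lack.

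Doxorubicin, which damages DNA, was compared with its solvent water in the Arf tumours. Doxorubicin lists had 0, 3 and 1 Fas sites in tumours 5, 6 and 7, and water lists had 0 in each. The means were 1.33 ± 1.53 (SD, n = 3) and 0 ± 0 (SD, n = 3), and tumour 5 overlapped with the water lists. The exact permutation p was 0.4, where 0.1 is the smallest possible for lists without ties. With peaks in only 2 lists, both of doxorubicin, 0.4 was the lowest p these counts allow. Of 3 member regions, 0 were gained, against 18.1% of the 15038 regions of these lists. With 1 list of each group allowed to differ, site 1 counted as gained, as did 54.5% of all regions. Adjusted over these regions by Benjamini-Hochberg, Fisher's exact test gave 0.763 for site 1 and 1 for sites 2 and 3. Even a region called in 3 of 3 doxorubicin and 0 of 3 water lists had an adjusted p of 0.551 by this test. Fisher's test could therefore call no region in this comparison, and it decides nothing about the 3 sites. Without tumour 6 the difference was 0.5 sites, and without tumour 5 it was 2.

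The doxorubicin lists with Fas peaks were likewise not the longest. Tumour 5 had 11346 peaks, more than the 8250 of tumour 6 and the 9523 of tumour 7. Of 14922 regions called in a doxorubicin list, 879 (5.89%) had a peak in tumours 6 and 7 and not in 5, as site 1 did. Regions of tumour 6 alone, as sites 2 and 3 were among doxorubicin lists, numbered 2055 (13.8%).

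The Nutlin enantiomers both had empty windows. At 5 µM for 3 h, (-)-Nutlin and (+)-Nutlin each had a Fas peak in 0 of 3 lists, as had DMSO. The same held for Tnfrsf10b and Perp. The difference was 0 sites for each gene and each pair of these groups, and the exact permutation p of 1 was fixed by the empty lists. With windows 10 kb wider on each side, which take in a site past the Tnfrsf10b window, (-)-Nutlin had a peak there in 2 of 3 lists and (+)-Nutlin and DMSO in 0 of 3, a difference of 0.667 sites with an exact permutation p of 0.4. A share of 0 of 3 lists has an exact Clopper-Pearson 95% interval up to 70.8%, so a difference between the forms is not detectable at this number of lists. No member region was available to be gained, while (-)-Nutlin gained 27.9% of 12661 regions over DMSO and 23.6% of 12660 over (+)-Nutlin. For (+)-Nutlin over DMSO the share was 0.0345% of 2901. The (-)-Nutlin lists were long, with 10503, 10674 and 5617 peaks in tumours 5, 6 and 7.

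Doxorubicin and (-)-Nutlin were set side by side in the same tumours. Fas sites numbered 0, 3 and 1 with doxorubicin and 0, 0 and 0 with (-)-Nutlin in tumours 5, 6 and 7. The difference of 1.33 sites had an exact permutation p of 0.4, and each of the 3 member regions had a Benjamini-Hochberg adjusted p of 1 by Fisher's exact test. Among 17070 regions 2.61% were called in every doxorubicin and no (-)-Nutlin list, and none of them was a member. With 1 list of each group allowed to differ, site 1 was again gained, beside 13.8% of all regions. The smallest possible permutation p is 0.1 for lists without ties, so this comparison could not have passed 0.05. Fisher's exact test has the same limit of 0.1 with 3 against 3 lists, so it could call no region here. With peaks in only 2 lists, both of doxorubicin, 0.4 was the lowest p these counts allow. Without tumour 6 the difference was 0.5 sites, and without tumour 5 it was 2.

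All 6 activated lists of Arf tumours were also compared with the 12 others. Fas sites averaged 0.667 ± 1.21 (SD, n = 6) against 0 ± 0 (SD, n = 12), with a two-sided exact permutation p of 0.098. Lists without ties could reach 5.39e-05, but only 2 of these lists had a Fas peak, both activated. No arrangement of these counts gives a lower p, so 0.05 was out of reach. In this comparison 4 of the 6 activated lists were at 0 like all the others. Adjusted by Benjamini-Hochberg over 17143 regions, Fisher's exact test gave 0.149 for site 1 and 0.346 for sites 2 and 3. Thus 0 of 3 member regions passed, and 0 had an unadjusted p under 0.05. Site 1 had a peak in only 2 of these lists, and sites 2 and 3 in 1 each. Their unadjusted Fisher p of 0.098 and 0.333 was the lowest these counts allow, so the test decides nothing about them. By the same test 34.6% of all regions had peaks more often after activation, and 4.29% were in every activated and no other list. Without tumour 6 the difference fell to 0.25 sites, and without tumour 5 it was 1. When longer lists were trimmed by width to the length of the shortest activated one, it was 0.333. The other Arf lists, with 707 to 2696 peaks, were shorter than that and stayed whole, so list length still differed between the groups.

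The kind of list moves with treatment. In 12 lists, among them all EtOH lists, the smallest peak was 52 to 54 bp, and in the 14 others it was 278 to 391 bp. All 4 lists with Fas peaks were of the wide kind, and the part of this in the result was not tested. In tumour 5, where all lists were wide, the Fas window was empty in every list, doxorubicin and (-)-Nutlin included.

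Window length sets how often a peak is met. The genome was divided into consecutive 75 kb segments, the length of the Fas window, from the first to the last peak of each autosome and X. In OHT lists 8.31% to 18.5% of 34285 segments held a peak, in doxorubicin lists 17.9% to 21.6% and in (-)-Nutlin lists 13.1% to 20.4%. EtOH lists reached 0.213% to 1.72%, and untreated, water, DMSO and (+)-Nutlin lists 1.25% to 6.94%. Of these segments 20.9% had a peak in at least 4 lists, as the Fas window had. For 50 kb segments, the length of the Tnfrsf10b window, 76.8% of 51432 had no peak in any of the 26 lists. For 55 kb segments, the length of the Perp window, 75.2% of 46760 had none. An empty segment of these lengths was thus the common case in these data. The segments were laid without regard to genes, while the windows were set around genes, and segments matched for genes were not tested.

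**Figure D3:**
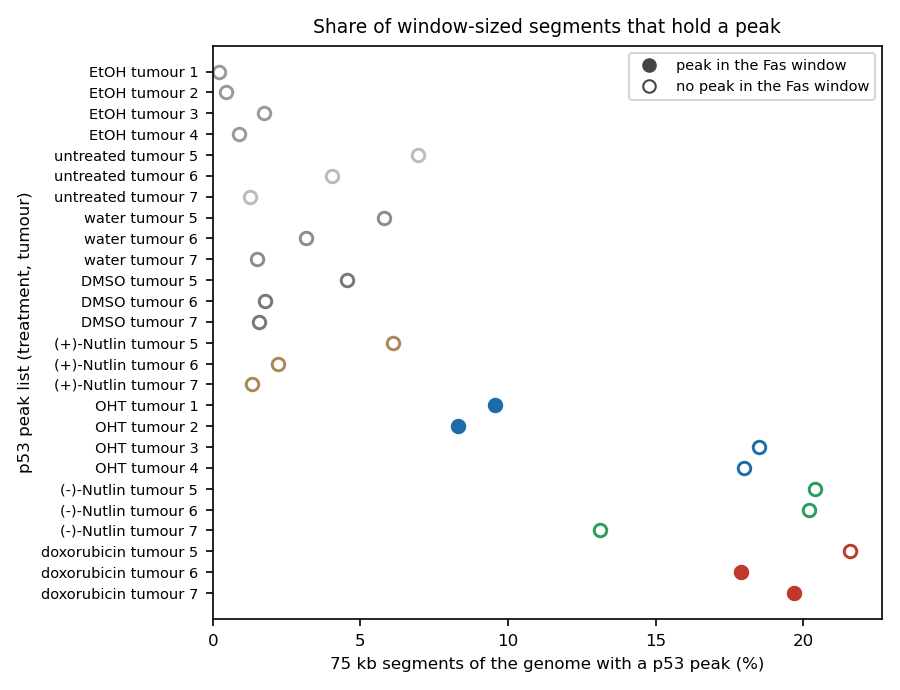
Percentage of 34285 genome segments of 75 kb that hold at least 1 peak, for each of the 26 lists, with filled symbols for lists that have a peak in the Fas window. The filled OHT symbols (tumours 1 and 2) lie below the open ones (tumours 3 and 4), and the 16 unactivated lists are all open.

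Tnfrsf10b, the TRAIL receptor gene, had 0 peaks in its window in all 26 lists. The exact Clopper-Pearson 95% interval for 0 of 26 lists runs up to 13.2%, taking lists as independent. With every list at 0, each comparison had to give a difference of 0 sites and an exact permutation p of 1, which tests nothing. Peaks did lie outside the window. One site, chr14:70131967-70132942, ended 17.1 kb before it and was called in 18 of the 26 lists. It had a peak in all 10 activated lists and in 8 of the 16 others. Among the latter were 2 of 4 EtOH lists, 2 of 3 untreated lists, 1 of 3 water lists, 2 of 3 DMSO lists and 1 of 3 (+)-Nutlin lists. Its Benjamini-Hochberg adjusted p was 0.106 by Fisher's exact test for the 6 activated against the 12 other Arf lists.

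On the other side of the Tnfrsf10b window most peaks came from activated lists. The site chr14:70205298-70205714, 5.3 kb past the window, was called in OHT tumours 3 and 4 and in (-)-Nutlin tumours 5 and 6, with peaks of 327 to 417 bp. No doxorubicin list and no unactivated list had it. The lists that had it were the longer ones of their treatments. Among regions called in any OHT list, 33.7% were called in tumours 3 and 4 alone. Among regions called in any (-)-Nutlin list, 26.9% were called in tumours 5 and 6 alone. A wider site, chr14:70230504-70231571, 30.5 kb past the window, was called in all 10 activated lists and in untreated tumours 5 and 6. Its OHT peaks were 687, 761, 994 and 965 bp wide in tumours 1 to 4, and Fisher's exact test of activated against other Arf lists gave a Benjamini-Hochberg adjusted p of 0.00875. Fisher's test takes these lists as independent, although they come from 3 tumours that each gave several. Every activated Arf list was also longer than every other Arf list. Neither the shared tumours nor the list length entered this p, so it does not separate activation from list length. By the same test 34.6% of all 17143 regions had peaks more often after activation. The site 5.3 kb past the window had an adjusted p of 0.149. Only 2 of the Arf lists had it, both activated, so its unadjusted p was the lowest these counts allow. Between these sites lay chr14:70224408-70224874, called in 5 activated lists, with an adjusted p of 0.0512. There too lay chr14:70229120-70229465, called in OHT tumour 4 alone. These sites were looked at after the window was found empty, and to which gene they belong was not analysed here.

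Perp, the adhesion and apoptosis gene, likewise had 0 peaks in its window in all 26 lists, again with an interval up to 13.2%. All differences were therefore 0 sites, and the exact permutation p of 1 was fixed by the empty lists. The nearest peaks lay 4.01 kb past the end of the window, at chr10:18604009-18604423, and came from 2 doxorubicin lists, with 320 bp in tumour 6 and 415 bp in tumour 7. These ranked at percentiles 5.29 and 15.4 of width within their lists. They came from the same 2 lists that held Fas site 1, and Fisher's exact test of activated against other Arf lists gave them a Benjamini-Hochberg adjusted p of 0.149. With peaks in only 2 lists, both activated, the unadjusted p was the lowest these counts allow. In the other 24 lists the nearest peak past the window was at least 129 kb away, and before the window it was at least 590 kb away in every list that had one on that side.

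The regions with a pattern most like Fas site 3 were found by presence over the 26 lists. Of 18924 regions outside the windows, 8 were called in the same 3 lists and no other. By the smallest mean difference in width percentile, the first 3 were chr10:3114125-3114592, at 16.4 percentile points, chr19:47524973-47525443, at 21.1, and chr3:103671275-103671866, at 24.2. Agreement in 25 or more lists was found for 93 regions. Presence in 3 lists leaves little pattern to compare, and the likeness is a description over lists of differing length.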

How the data were processed

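Chromatin of lymph node tumour cells was immunoprecipitated with a p53 antibody and sequenced. The authors used BWA 0.6.2, SAMtools and build mm9, per the submitters' processing notes. For the peak caller and its threshold the sources used here give no name. Each deposited list has the chromosome, start and end of its peaks, with no score, so position and width are all that was compared. Read depth is unknown here, and 7 input libraries were not used. Starts were counted from 1.

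Windows came from a rule that names mm9 positions. Peaks of all 26 lists sharing at least 1 bp were merged into 18927 regions, and sites are those that overlap a window. Widths were ranked within each list, ties counted midway. Groups were taken from sample titles. Samples with one tumour number share a tumour, which pairs them across treatments. Numbers of sites were compared by two-sided exact permutation over lists. Regions of the compared lists were tested by Fisher's exact test, adjusted by Benjamini-Hochberg over all of them, threshold 0.05. Its p-values given for regions ignore that lists share tumours. The naming rule asked for every site in at least 3 lists, and here all 3 Fas sites are described. There were 7 comparisons in each of 3 windows, whose permutation p-values are unadjusted. Other death receptor pathway genes were not analysed here, as they have no mm9 window. The members, lists and rules were chosen with earlier results of these data known. Alternatives were width, extent, merging, window, list length, tumour block and tumours left out. Windows 20 kb wider, and the counts of lists with a peak, were added after seeing the data. Code was tested on simulated lists. Python 3.11.15, NumPy 2.4.6 and SciPy 1.17.1 were used.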

Additional observations from a re-analysis of the deposited data

How the results depend on the processing

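Of 359 alternative values, 288 were 0 beside a reported value of 0. Most of these came from windows without peaks, which stayed empty and say nothing about stability. Others were counts of gained sites or Fisher calls in comparisons that had Fas sites. There the Fisher calls could not arise from so few lists with a peak. Of 48 alternatives for the 4 comparisons with a difference in Fas sites, 45 kept its direction and 3 gave 0, but as no control or (-)-Nutlin list had a Fas peak the direction could not turn. With 3 against 3 lists, or with tumours as a block in the OHT comparison, p cannot go below 0.1, so that no call could be made there. In the 4 comparisons with a Fas difference, the reported permutation p was already the lowest that the counts allow. In OHT against EtOH, a region with a peak in 4 of 4 OHT and 0 of 4 EtOH lists still had a Benjamini-Hochberg adjusted p of 0.307 by Fisher's exact test. That test could thus make no call in this comparison either. With windows 10 kb wider on each side, Tnfrsf10b had 0.5 more sites in OHT than in EtOH lists, 0.667 more with (-)-Nutlin than with DMSO or (+)-Nutlin, 0.333 more in activated than in other Arf lists, and a doxorubicin minus (-)-Nutlin difference of -0.667. Perp then had 0.667 more with doxorubicin than with water or (-)-Nutlin and 0.333 more in activated lists. Lists with a peak then numbered 4 for Tnfrsf10b and 2 for Perp, and with windows 20 kb wider 18 and 2. In tumour 5 alone the Fas difference was 0 for doxorubicin against water, against (-)-Nutlin and for activated against other Arf lists. Gained sites of doxorubicin against water and against (-)-Nutlin became 1 with 1 deviating list allowed per group, and ranged from 0 to 1 with 1 tumour left out. With the tumour as a block, the Fas differences stayed 0.5 (OHT, exact permutation p = 0.5), 1.33 (doxorubicin, p = 0.5) and 0.667 (activated, p = 0.111), and no call changed. Among peaks of at least 457 bp they were 0.25, 0.667 and 0.333, and with lists cut to the shortest of the first group 0.5, 1.33 and 0.333. That cut left the EtOH, water and other unactivated lists whole, so it did not make the groups equal in length. The number of lists and the absence of scores limit these results.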
